A study of Mus musculus with 31 samples.

Results

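Jun, Fos, Egr1, Ier and Myc genes were followed in ribosome-protected fragments (RPFs) and in total RNA of mouse squamous cell carcinoma (SCC) cells treated with bortezomib. The 10 genes were the Jun genes (Jun, Junb and Jund), the Fos genes (Fos, Fosl1 and Fosl2), Egr1, Ier2, Ier3 and Myc. They were found by name and Entrez identifier in tables that list 20704 genes in RPF and 24593 in total RNA, and all 10 were listed in both.

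The cells were keratinocyte-derived SCC cells with oncogenic HRasG12V. For the second locus the labels read TgfbrIIfl/fl, whereas the study describes its SCC cells as deleted for this gene in its text. In every group the endogenous Eif2s1 gene, which encodes eIF2α, had been ablated by CRISPR and replaced by a myc-tagged transgene driven by the PGK promoter. The transgene was wild type in S51 cells, which can mount the integrated stress response (ISR), and carried alanine in place of the phosphorylated serine in S51A cells, which cannot. Each genotype received DMSO vehicle or bortezomib, a proteasome inhibitor, at 100 nM. The labels give the treatment as 4.5 h, and a legend of the study gives a slightly shorter time. The lines were clonal, with a pair of clones per genotype, and which clone gave which library was not named. A note to the series states that the titles of the S51 bortezomib and S51A vehicle samples were exchanged, and libraries were assigned by that note. RPF libraries numbered 3 for S51 vehicle and 4 for each other group, and total RNA libraries 4 for each group.

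AP-1 is a dimer of a Jun protein with a Fos, Jun or ATF partner, which binds DNA and switches on genes of growth, invasion and stress. Several of the Jun and Fos genes are called immediate early because growth factors and stress raise their transcription without new protein synthesis. This runs through MAPK family kinases and, for Fos and Egr1, the serum response factor. Their mRNAs are short-lived, and several of their protein products, like c-Myc, are degraded by the proteasome. In keratinocytes AP-1 governs proliferation, differentiation and the response to Ras. In the ISR, phosphorylated eIF2α lowers general initiation of translation.

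Total counts ran from 1038826 to 4902237 per RPF library (median 2433494) and from 18758668 to 22994713 per total RNA library (median 20887640). Levels are given as CPM, which are read counts scaled to a common library size. All 7 keratinocyte markers averaged above 1 CPM in each group, and in total RNA they summed to 10754 to 15477 CPM. The 6 fibroblast markers summed to 2.69 to 6.94 CPM, the 3 endothelial markers to at most 4.88 CPM and the 3 melanocyte markers to at most 1.02 CPM. The 6 immune markers summed to 3.47 to 4.50 CPM in S51 vehicle and 8.43 to 10.3 CPM in S51A bortezomib, with the other groups in between and 2 of the 6 at 0 in each group. Their part in the results was not tested. Eif2s1 lay between 279 and 314 CPM in total RNA, a count that does not separate the transgene from the endogenous gene. Its RPF level was less even, at 81.2 to 171 CPM in S51 vehicle and 148 to 196 CPM in S51 bortezomib. In S51A it was 213 to 260 CPM with vehicle and 190 to 235 CPM with bortezomib. Among the 3 RPF libraries of S51 vehicle, replicate 2 was the highest for 9 of 9 members tested. For several results that rest on it, values are also given without it. Whether reads of the myc tag fell on the Myc gene was not tested.

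In the RefSeq annotation of GRCm38.p6, Jun at chr4:95049036-95052222 (minus strand), Junb at chr8:84976909-84978748 (minus strand), Jund at chr8:70697739-70700616 (plus strand) and Ier2 at chr8:84661331-84662852 (minus strand) are placed as intronless genes. The others carry introns, with Fos at chr12:85473890-85477274 (plus strand), Fosl1 at chr19:5447698-5455938 (plus strand), Fosl2 at chr5:32136472-32157840 (plus strand), Ier3 at chr17:35821713-35822911 (plus strand) and Myc at chr15:61985341-61990361 (plus strand). RPF counts came from coding exons.

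The bases upstream of the annotated starts of Jun, Junb and Fos are printed because the results of these AP-1 genes with bortezomib differed, as described further on. Total RNA of Jun was higher and that of Junb lower with bortezomib in both lines. The change of Fos did not pass the thresholds used in either line. The genes were thus chosen by outcome, and a link between motifs and changes was not tested. RefSeq (GRCm38.p6) gave such sequence for 6 of the 10 members, and the 250 bases before the start are written 5′ to 3′ on the strand of the gene. They are chr4:95052223-95052472 (minus strand) for Jun, chr8:84978749-84978998 (minus strand) for Junb and chr12:85473640-85473889 (plus strand) for Fos. Capitals mark the motifs described after the sequences.
Jun: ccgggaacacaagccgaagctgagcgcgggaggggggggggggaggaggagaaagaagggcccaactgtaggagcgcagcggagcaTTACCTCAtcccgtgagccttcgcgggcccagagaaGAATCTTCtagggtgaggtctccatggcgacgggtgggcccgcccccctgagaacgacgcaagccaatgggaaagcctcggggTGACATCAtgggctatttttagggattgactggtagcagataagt
Junb: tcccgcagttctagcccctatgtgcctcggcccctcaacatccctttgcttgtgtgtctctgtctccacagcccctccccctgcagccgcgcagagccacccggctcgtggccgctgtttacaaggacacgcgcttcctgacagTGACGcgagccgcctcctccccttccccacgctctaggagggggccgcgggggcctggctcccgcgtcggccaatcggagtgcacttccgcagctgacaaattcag
Fos: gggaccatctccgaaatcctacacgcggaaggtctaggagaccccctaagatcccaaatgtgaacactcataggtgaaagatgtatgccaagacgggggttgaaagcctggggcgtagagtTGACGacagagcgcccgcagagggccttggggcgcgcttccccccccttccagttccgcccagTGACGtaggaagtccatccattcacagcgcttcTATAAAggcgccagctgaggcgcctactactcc
Letters were searched on both strands, all matches in the members lay on the strand of the gene, none overlapped another, and positions count back from the annotated start. The AP-1-like octamer TGACATCA, through which AP-1 is known to act on the Jun gene itself, stood at -45 to -38 of Jun and in 2.93% of 32851 promoters of this length. A further AP-1-like octamer of Jun, TTACCTCA, stood at -164 to -157 and in 0.728% of promoters. A pair of inverted heat shock units, GAANNTTC, stood at -128 to -121 of Jun, at -244 to -237 of Fosl2 and in 6.69% of promoters. The core of the cyclic AMP response element, TGACG, stood at -106 to -102 of Junb, at -129 to -125 and -66 to -62 of Fos, and in 17.8% of promoters. TATAAA stood at -33 to -28 of Fos and in 12.4% of promoters. Neither the AP-1 consensus TGANTCA (6.75% of promoters) nor TGATGNAA, the core of the composite site of ATF4 and C/EBP factors (3.45%), occurred in these windows of the 6 members. These are matches of letters and not measured binding.

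Compared per length, the members differed widely before treatment. In RPF of S51 vehicle, CPM per kilobase of counted coding sequence averaged 395 ± 105 (SD, n = 3) for Fosl1, 237 ± 56.8 for Junb, 236 ± 59.2 for Myc and 175 ± 68.6 for Ier2. Ier3 followed at 92.0 ± 18.9, Fosl2 at 50.2 ± 17.9, Jund at 48.5 ± 20.7 and Jun at 20.7 ± 6.52, and Fos and Egr1 were lowest at 4.90 ± 1.88 and 3.47 ± 1.76. The libraries of Fosl1 lay above those of Junb, Myc and Ier2, whose ranges overlapped one another, as did those of Fosl2 with Jund and of Fos with Egr1. Total RNA per kilobase of exon put the members in another order, led by Junb at 55.6 ± 6.60 (n = 4) and Myc at 37.9 ± 3.14, with Fosl1 at 8.17 ± 1.23.

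**Figure D1:**
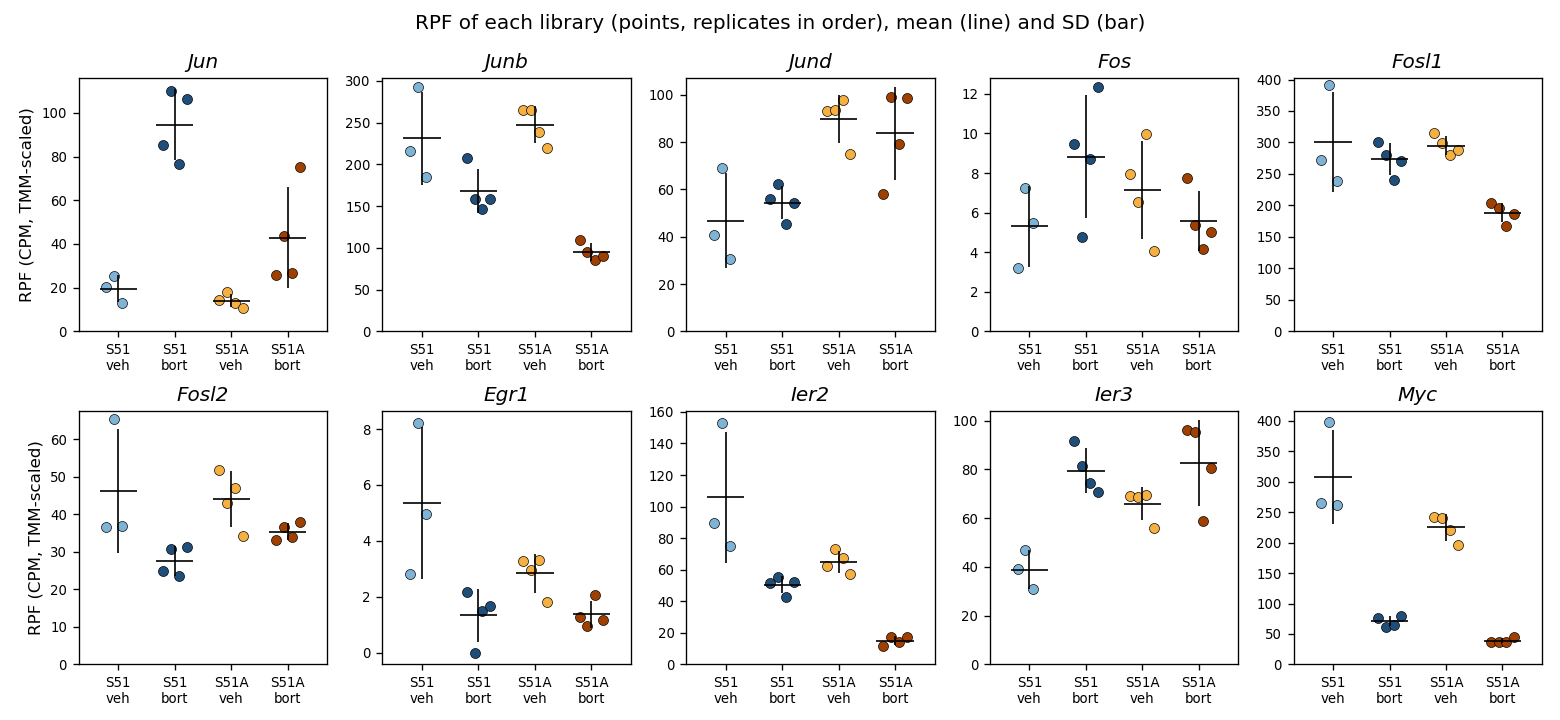
RPF level of each of the 10 members (y axis, CPM on TMM-scaled library sizes) in every library of the 4 groups (x axis; veh, vehicle; bort, bortezomib), with points for libraries, horizontal lines for means and vertical lines for SD. Jun was higher and Myc and Ier2 lower with bortezomib in both lines, with no overlap between treated and vehicle libraries of a line.

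Jun, which encodes the c-Jun subunit of AP-1, was the member that rose most with bortezomib, in both lines and in both kinds of library. In S51 its RPF level was 20.5, 25.1 and 12.9 CPM with vehicle and 85.2, 110.0, 76.8 and 106 CPM with bortezomib. In S51A it was 14.5, 17.9, 12.9 and 10.7 CPM with vehicle and 25.8, 43.9, 26.5 and 75.1 CPM with bortezomib. Treated and vehicle libraries did not overlap in either line, and one treated S51A library lay well above the other 3. The RPF log2 fold change of Jun was 2.32 (SE 0.30, adjusted p = 5.03e-06 by the quasi-likelihood test of edgeR after Benjamini-Hochberg adjustment) in S51, or 4.98-fold. In S51A it was 1.61 (SE 0.29, adjusted p = 0.000311 by edgeR), or 3.05-fold. Here a call needed both a fold above 1.5 and an adjusted p under 0.05, and "rose" and "fell" are used of called changes on the log2 scale.

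Total RNA of Jun moved by a like amount. It was 11.8, 10.9, 10.6 and 11.5 CPM in S51 with vehicle and 53.9, 58.2, 49.0 and 57.5 CPM with bortezomib. In S51A it was 11.2, 12.3, 8.03 and 9.16 CPM with vehicle and 24.1, 35.1, 19.9 and 42.1 CPM with bortezomib. All 4 treated libraries of each line lay above its 4 vehicle libraries, and the treated S51 libraries all lay above those of S51A. The log2 fold change in total RNA was 2.29 (SE 0.15, adjusted p = 5.14e-12 by edgeR) in S51 and 1.58 (SE 0.16, adjusted p = 1.25e-08) in S51A. In bulk libraries, more RNA per cell and more cells holding it cannot be told apart.

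Junb, whose product can oppose c-Jun, moved the other way. Its RPF level in S51 was 216, 292 and 185 CPM with vehicle and 207, 159, 147 and 159 CPM with bortezomib, and the ranges overlapped. The S51A level of Junb was 265, 265, 239 and 220.1 CPM with vehicle and 109.9, 95.0, 85.3 and 90.1 CPM with bortezomib, and all treated libraries lay below the vehicle libraries. The RPF of Junb fell in S51A by 1.37 (SE 0.13, adjusted p = 1.08e-07 by edgeR). In S51 its log2 fold change of -0.46 (SE 0.14, adjusted p = 0.0171 by edgeR) was under the fold, and it was -0.62, past it, without S51 vehicle replicate 3. The fit without that library kept replicate 2, the highest S51 vehicle library (292 CPM). Total RNA of Junb fell by 0.61 (SE 0.09) in S51 and by 1.54 (SE 0.09) in S51A. The S51 call sat at the edge of the fold, with values of -0.53 without S51 vehicle replicate 1 and -0.57 without S51 bortezomib replicate 4.

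Jund, the Jun gene least induced by growth signals, was not called in either response. In S51 its RPF was 40.7, 69.1 and 30.6 CPM with vehicle and 56.0, 62.2, 45.4 and 54.3 CPM with bortezomib, a log2 fold change of 0.24 (SE 0.23), and the vehicle libraries spanned the treated ones. Without S51 vehicle replicate 2 it was 0.60, past both thresholds. In total RNA it was 0.58 (SE 0.10, adjusted p = 1.55e-05 by edgeR), just under the fold, and past the fold without any one of S51 vehicle replicates 1 (0.62) and 3 (0.61) or S51 bortezomib replicates 3 (0.65) and 4 (0.60). In S51A the values were -0.11 (SE 0.18) in RPF and -0.08 (SE 0.09) in total RNA.

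The make-up of the Jun family differed with treatment. Per length, Jun made up 6.71% ± 0.899 (SD, n = 3) of the RPF of the 3 Jun genes in S51 with vehicle and 30.5% ± 4.30 (n = 4) with bortezomib. In S51A its share was 4.07% ± 0.569 with vehicle and 18.9% ± 7.10 with bortezomib (n = 4 each). The share of Junb went from 77.9% ± 2.68 to 52.4% ± 5.21 in S51 and from 70.2% ± 1.58 to 43.5% ± 9.60 in S51A. For both genes the shares of treated and vehicle libraries of a line did not overlap. The share of Jund was 15.4% ± 2.31 with vehicle and 17.1% ± 1.12 with bortezomib in S51, and 25.7% ± 1.64 and 37.6% ± 5.43 in S51A. It was higher in S51A than in S51 without overlap under both treatments. The summed RPF of the family was 197 to 274 CPM per kilobase in treated S51A libraries, below the 315 to 388 of S51A vehicle. In S51 the treated libraries (279 to 361) lay within the range of the vehicle libraries (235 to 398). The top of that range was S51 vehicle replicate 2. The other vehicle libraries were at 285 and 235, against 361, 344, 279 and 332 with bortezomib.

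**Figure D2:**
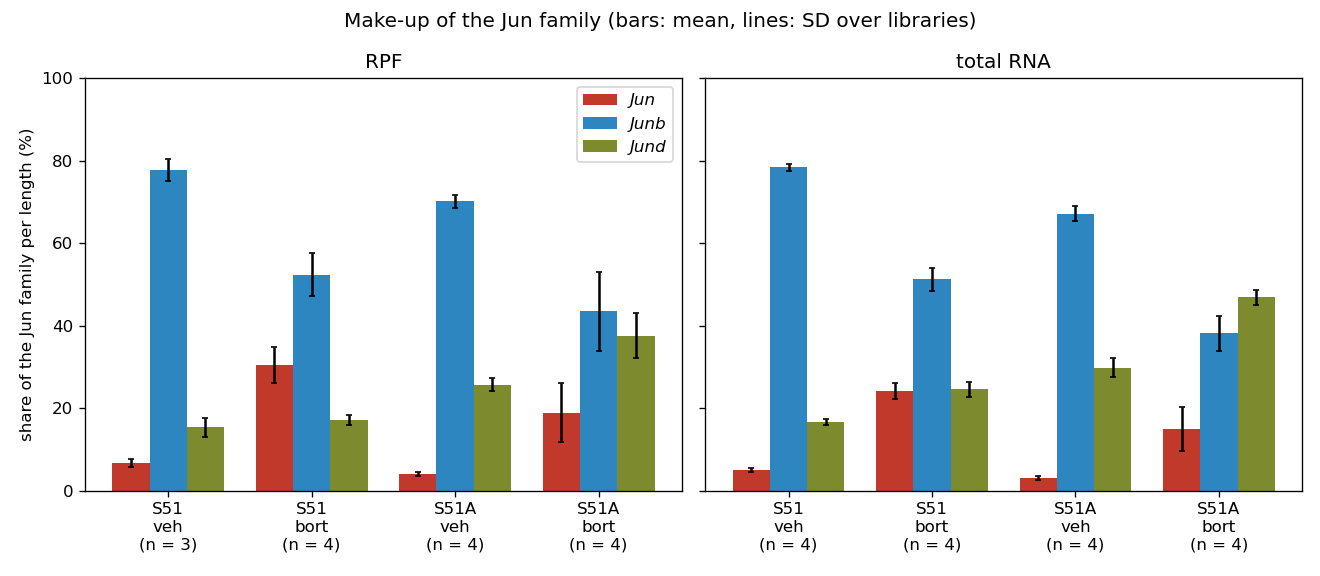
Share of Jun, Junb and Jund in the Jun family (y axis, percent of the summed CPM per kilobase) in RPF and total RNA of each group (x axis; veh, vehicle; bort, bortezomib), as means with SD over libraries. The share of Jun was higher with bortezomib in both lines, and that of Jund was higher in S51A than in S51 with vehicle and with bortezomib.

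Of the Fos family, Fosl1, which encodes FRA-1, an AP-1 subunit linked to Ras and to invasion, made up most of the RPF. Its mean share per length lay between 85.0% in S51A with bortezomib and 90.4% in S51 with bortezomib. In total RNA the mean share of Fosl1 was lower, between 40.8% in S51A with bortezomib and 55.2% in S51 with bortezomib. There Fosl2 held the larger mean share in S51A with bortezomib, at 46.8%, although in replicate 1 Fosl1 held 44.9% and Fosl2 42.6%. The RPF of Fosl1 in S51 was 273, 391 and 238 CPM with vehicle and 301, 280.3, 240.2 and 271 CPM with bortezomib. The S51A level of Fosl1 was 314, 299, 279.7 and 288 CPM with vehicle and 203, 195, 168 and 186 CPM with bortezomib. Bortezomib libraries overlapped the vehicle libraries in S51 and lay below all of them in S51A. Fosl1 fell in S51A by 0.65 in RPF (SE 0.12, adjusted p = 0.00037 by edgeR) and by 0.70 in total RNA (SE 0.10, adjusted p = 4.03e-06). In S51 its log2 fold change was -0.14 (SE 0.13) in RPF and 0.07 (SE 0.10) in total RNA.

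Counts of Fosl1 carry a limit of annotation. Of its 1705 exonic bases, 1155 also belong to Ccdc85b on the opposite strand, as do 525 of its 822 coding bases, and no other member overlapped another gene's exons. The ratio of RPF to total RNA CPM of Fosl1 averaged 21.2 ± 8.44 (SD, n = 3) in S51 with vehicle, from 16.6, 30.9 and 16.1 in replicates 1, 2 and 3. The ratio of its group means of RPF and total RNA lay above 99.8% of genes tested in both kinds. The part of the overlap in these ratios, and in the levels and shares of Fosl1 per length, was not tested.

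Fos, the serum-induced partner of Jun, was scarce. Its RPF level in S51 was 3.19, 7.25 and 5.48 CPM with vehicle, from 9, 15 and 22 reads, and 9.46, 4.78, 8.70 and 12.3 CPM with bortezomib, from 13, 5, 23 and 22 reads. The ranges overlapped, and the log2 fold change was 0.81 (SE 0.36, adjusted p = 0.0901 by edgeR). Without S51 vehicle replicate 2 it was 1.02, with an adjusted p of 0.0359 by edgeR. Total RNA of Fos in S51 was 3.57, 2.92, 3.53 and 3.18 CPM with vehicle and 4.34, 5.64, 3.60 and 5.58 CPM with bortezomib. Every treated library lay above every vehicle library, although one by little. The total RNA change was 0.54 (SE 0.14, adjusted p = 0.00194 by edgeR), under the fold, and 0.65, past it, without S51 bortezomib replicate 3. In S51A the log2 fold change of Fos was -0.22 (SE 0.32) in RPF and -0.14 (SE 0.13) in total RNA.

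Fosl2, which encodes FRA-2, fell in RPF of S51. Its levels were 36.5, 65.3 and 36.8 CPM with vehicle and 24.7, 30.6, 23.5 and 31.4 CPM with bortezomib, with no overlap. The fall was by 0.73 (SE 0.20, adjusted p = 0.00907 by edgeR), and without S51 vehicle replicate 2 the log2 fold change was -0.44, under the fold. Its total RNA change in S51 was -0.51 (SE 0.06), also under the fold, and -0.67, past it, with library sizes alone. In S51A the changes were -0.29 (SE 0.17) in RPF and -0.19 (SE 0.05) in total RNA.

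Ier2, an immediate early gene induced by growth factors, fell in both lines. Its RPF level in S51 was 89.6, 153 and 75.2 CPM with vehicle and 51.7, 55.5, 42.7 and 52.1 CPM with bortezomib. In S51A it was 62.6, 73.3, 67.2 and 57.0 CPM with vehicle and 11.9, 17.1, 14.0 and 17.4 CPM with bortezomib. The treated S51A libraries lay below those of every other group, and in each line treated and vehicle libraries did not overlap. The RPF of Ier2 fell by 1.07 (SE 0.19, adjusted p = 0.00021 by edgeR) in S51, and in S51A it fell by 2.12 (SE 0.21, adjusted p = 1.2e-07). Total RNA of Ier2 fell by 0.85 (SE 0.09) in S51, with means of 28.2 ± 2.11 and 15.7 ± 1.20 CPM (SD, n = 4 each). In S51A it fell by 2.36 (SE 0.11), with means of 23.3 ± 2.11 and 4.52 ± 0.959 CPM.

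Ier3, also known as IEX-1, a regulator of cell survival, rose in RPF of S51 and was the only member called for a change in RPF beyond that in total RNA, here called translational efficiency (TE). Its RPF level in S51 was 39.0, 46.9 and 30.9 CPM with vehicle and 91.7, 81.3, 74.5 and 70.6 CPM with bortezomib. Total RNA was 30.1, 27.0, 26.1 and 24.9 CPM with vehicle and 37.8, 35.8, 33.2 and 32.6 CPM with bortezomib. Treated libraries lay above vehicle libraries in both, by more in RPF. The log2 fold change was 1.05 in RPF (SE 0.17, adjusted p = 8.25e-05 by edgeR) and 0.37 in total RNA (SE 0.09, adjusted p = 0.00084, under the fold). The TE change was 0.69 (SE 0.20, adjusted p = 0.0223 by edgeR over all 31 libraries). That call was lost without RPF S51 vehicle replicate 3 (0.49, adjusted p = 0.116 by edgeR) and without RPF S51 bortezomib replicate 1 (0.62, adjusted p = 0.0567). The ratio of RPF to total RNA CPM of Ier3 averaged 1.40 ± 0.292 (SD, n = 3) and 2.28 ± 0.110 (n = 4) in S51, and 1.38 ± 0.127 and 1.54 ± 0.208 in S51A. In S51A the Ier3 changes were 0.35 (SE 0.14) in RPF and 0.16 (SE 0.08) in total RNA.

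Egr1, a zinc finger transcription factor, was barely detected. Its RPF counts in S51 were 8, 17 and 20 reads with vehicle and 3, 0, 4 and 3 with bortezomib. In S51A they were 7, 14, 8 and 9 reads with vehicle and 4, 2, 4 and 3 with bortezomib. Egr1 did not pass the filter on low RPF counts, so no RPF or TE test was made. In total RNA it passed through its vehicle libraries, of which 4 for S51 and 3 for S51A reached the filter's level, against 0 treated libraries. Its log2 fold change in total RNA, -1.52 (SE 0.34, adjusted p = 0.000413 by edgeR) in S51, is therefore given as a value and supports nothing. In S51A it was -0.78 (SE 0.35, adjusted p = 0.0623 by edgeR). The S51A value passed both thresholds without S51A vehicle replicate 1 (-0.96) and without S51A bortezomib replicate 4 (-0.98). These S51A values share the limit of the filter and support nothing either.

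Myc, which encodes the proliferative transcription factor c-Myc, was the member that fell most. In S51 its RPF level was 265, 397 and 262 CPM with vehicle and 76.4, 62.2, 65.1 and 80.1 CPM with bortezomib. The S51A level of Myc was 243, 241, 221 and 196 CPM with vehicle and 36.7, 36.5, 36.9 and 44.9 CPM with bortezomib. Treated libraries of each line lay far below its vehicle libraries. The RPF of Myc fell by 2.11 (SE 0.14, adjusted p = 2.45e-10 by edgeR) in S51 and by 2.53 (SE 0.14, adjusted p = 2.38e-11) in S51A. Total RNA of Myc averaged 91.0 ± 7.52 CPM (SD, n = 4) in S51 with vehicle and 21.2 ± 1.90 CPM with bortezomib, a fall by 2.10 (SE 0.07). In S51A it averaged 79.1 ± 6.79 and 14.7 ± 0.678 CPM, a fall by 2.43 (SE 0.07).

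**Figure D3:**
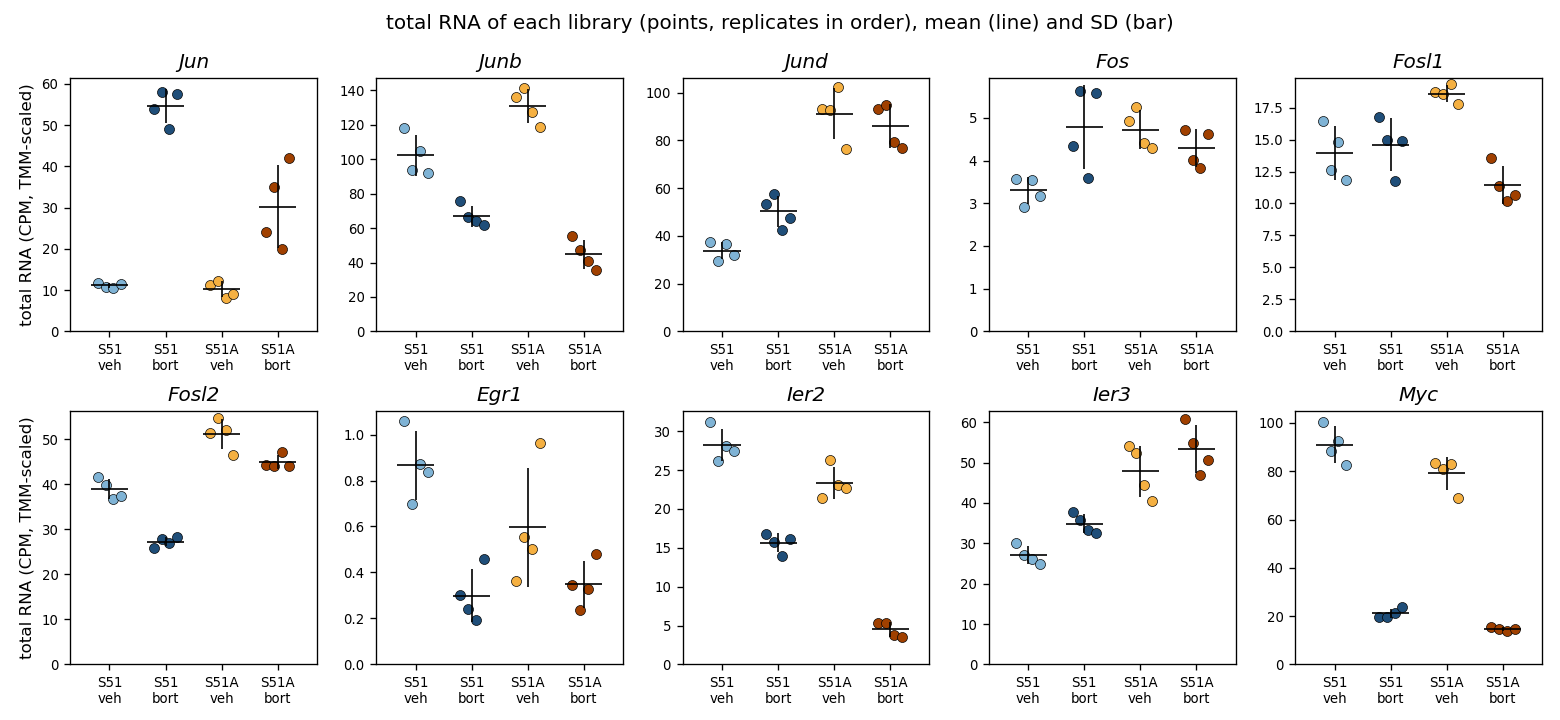
Total RNA level of each of the 10 members (y axis, CPM on TMM-scaled library sizes) in every library of the 4 groups (x axis; veh, vehicle; bort, bortezomib), with points for libraries, horizontal lines for means and vertical lines for SD. Jun was higher and Ier2 and Myc lower with bortezomib in both lines, and Jund was higher in S51A than in S51.

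Counted over the S51 response in RPF, 2 of the 9 members tested rose and 3 fell, where 7.38% of 9457 genes were called higher and 11.2% lower. In S51A, 1 rose and 4 fell, against 4.19% and 6.67% of genes. In total RNA, leaving Egr1 out because of how it passed the filter, 1 of 9 members rose and 3 fell in S51, against 5.7% and 9.59% of 11708 genes. In the S51A response 1 of these 9 rose and 4 fell in total RNA, against 4.54% and 8.57% of genes. Jun was called higher, and Ier2 and Myc lower, in all 4 of these comparisons.

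For TE, the other 8 members tested in S51 changed by -0.31 (Jund, SE 0.26) to 0.29 (Fos, SE 0.37), and Ier3 was the 1 member called, against 5.28% of 9424 genes called in either direction. Myc, with a large fall in RPF, had a TE change in S51 of 0.00 (95% interval -0.28 to 0.29), and Jun one of 0.04 (95% interval -0.71 to 0.80). The interval of Jun holds TE changes past the fold in either direction, and that of Myc does not. RPF and TE are relative to the other genes of the libraries, so a change in translation shared by all genes does not show in them. The study reports that bortezomib lowered protein synthesis, without an apparent dependence on the ISR. In S51A, TE changes ran from -0.10 (Myc, SE 0.17) to 0.24 (Ier2, SE 0.27). By edgeR and by DESeq2 0 were called in S51A and 0 had an unadjusted p below 0.05, against 0.987% of genes called.

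**Figure D4:**
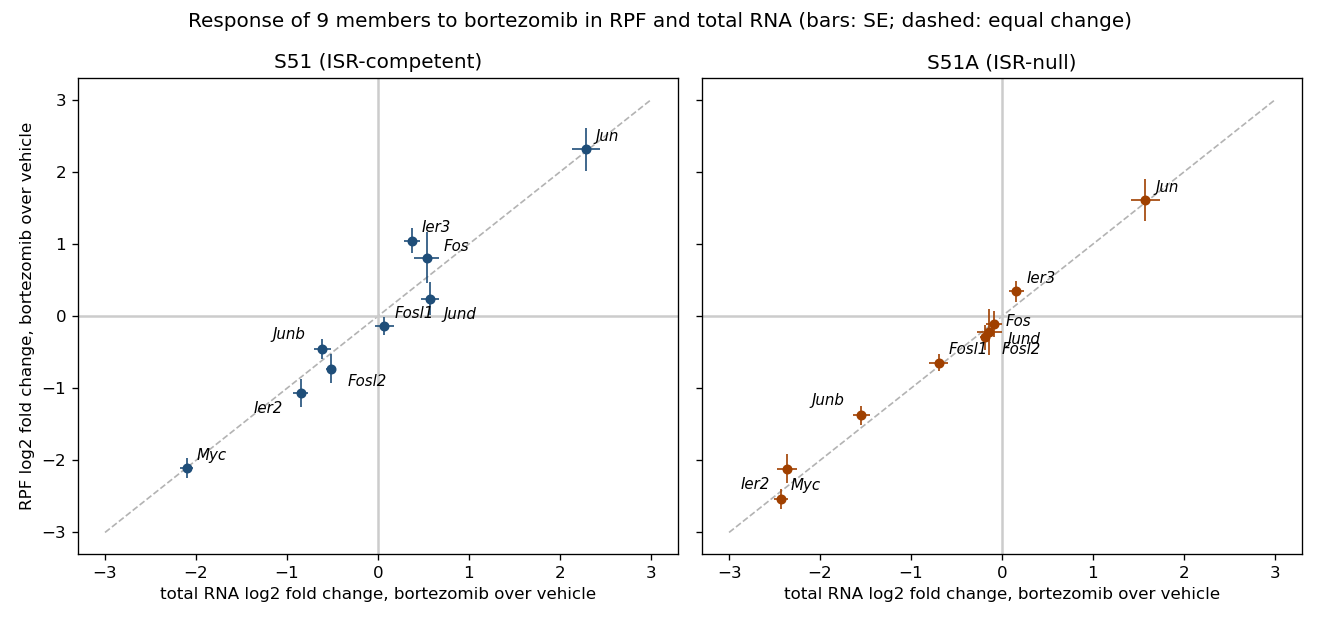
RPF log2 fold change (y axis) against total RNA log2 fold change (x axis) of the 9 members tested in both, bortezomib over vehicle, in S51 (left) and S51A (right), with bars for SE and a dashed line for equal change. Members lay near the line, with Ier3 above it in S51.

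Without treatment, differences between the lines were called for Jund, Ier2 and Ier3, and others passed the adjusted p and not the fold. Jund was 30.6 to 69.1 CPM in RPF of S51 with vehicle and 75.0 to 97.9 CPM in S51A with vehicle, with no overlap. It was higher in S51A by 0.99 in RPF (SE 0.21, adjusted p = 0.00129 by edgeR) and by 1.43 in total RNA (SE 0.09). Ier3 was higher in S51A by 0.78 in RPF (SE 0.17, adjusted p = 0.00133 by edgeR) and by 0.83 in total RNA (SE 0.09). The RPF value of Ier3 was 0.58, under the fold, without S51 vehicle replicate 3. Ier2 was lower in RPF of S51A (-0.68, SE 0.17, adjusted p = 0.00572 by edgeR), and the value was -0.33, under the fold, without S51 vehicle replicate 2. Its total RNA difference was -0.27 (SE 0.08), past the adjusted p and not the fold. The same held in total RNA for Junb (0.36, SE 0.09), Fos (0.52, SE 0.14), Fosl1 (0.42, SE 0.10) and Fosl2 (0.40, SE 0.05), which were higher in S51A. It also held there for Myc (-0.20, SE 0.06), which was lower in S51A. The RPF difference of Myc, -0.45 (SE 0.13), was under the fold. It reached -0.60 without S51 vehicle replicate 3, in a fit that kept the higher replicate 2. Egr1 in total RNA differed by -0.51 (SE 0.28), and by -0.86, a call, without S51A vehicle replicate 4.

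In RPF, 2 of 9 members were thus higher and 1 lower in S51A with vehicle, against 9.19% and 6.62% of genes. In total RNA 2 of 10 were higher, against 11.2% of genes. By edgeR and by DESeq2 0 were called lower there, although 2 had an unadjusted p below 0.05, against 6.29% of genes called lower. For TE 0 members were called by either tool, with 2 at an unadjusted p below 0.05, against 0.0849% of genes. Without RPF S51 vehicle replicate 3, 4 members were called lower for TE, as were 216 of 9490 genes, and 164 of 9490 were called higher. That fit kept S51 vehicle replicate 2, the RPF library that was highest for the members, and its part in these calls was not tested. Since each line is clonal, a difference between genotypes and one between clones cannot be told apart.

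With bortezomib in both lines, S51 held more Jun, Junb, Ier2 and Myc in RPF than S51A. The differences were 1.12 (SE 0.25, adjusted p = 0.00177 by edgeR) for Jun, 0.81 (SE 0.14) for Junb, 1.73 (SE 0.22) for Ier2 and 0.87 (SE 0.15) for Myc. Fosl1, at 0.53 (SE 0.12), was under the fold and passed it without S51 bortezomib replicate 3 (0.59). Jund was lower in S51 (-0.64, SE 0.20, adjusted p = 0.0209 by edgeR). That call was lost without S51 bortezomib replicate 3 (-0.54), S51A bortezomib replicate 2 (-0.55) or S51A bortezomib replicate 4 (-0.54). These were 4 of 9 members higher and 1 lower, against 7.66% and 10% of genes.

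In total RNA of treated cells, Jun (0.84, SE 0.14) and Ier2 (1.79, SE 0.11) were higher in S51, whereas Jund (-0.77, SE 0.09), Fosl2 (-0.72, SE 0.06) and Ier3 (-0.61, SE 0.08) were lower. Background shares were 8.23% of genes higher and 11.7% lower. The Ier3 value was under the fold without S51 bortezomib replicate 4 (-0.58) or S51A bortezomib replicate 1 (-0.54). Junb and Myc, at 0.57 (SE 0.10) and 0.53 (SE 0.08), passed the adjusted p and not the fold. Junb passed it without any one of S51 bortezomib replicates 3 (0.59) and 4 (0.61) or S51A bortezomib replicates 1 (0.69) and 2 (0.60). For TE 0 members were called by edgeR or DESeq2, 1 had an unadjusted p below 0.05, and 3.08% of genes were called.

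Whether the lines responded differently was tested as the S51 response minus the S51A response. In total RNA this difference was called for 6 of 10 members, all with the higher response in S51, against 1.34% of genes called higher. It was 1.51 for Ier2 (SE 0.14, adjusted p = 1.18e-07 by edgeR), 0.93 for Junb (SE 0.13, adjusted p = 2.44e-05) and 0.77 for Fosl1 (SE 0.15, adjusted p = 0.000633). It was 0.66 for Jund (SE 0.13, adjusted p = 0.000785 by edgeR), 0.67 for Fos (SE 0.19, adjusted p = 0.0145) and 0.71 for Jun (SE 0.23, adjusted p = 0.0279). For Ier2 and Junb the value marks a smaller fall in S51, and for Jun a larger rise. A higher response is not a higher treated level. Total RNA of Jund was higher in S51A with vehicle (1.43, S51A over S51) and still lower in S51 with bortezomib (-0.77, S51 over S51A). Fos was higher in S51A with vehicle (0.52, SE 0.14, under the fold), and its difference with bortezomib was 0.16 (SE 0.14, S51 over S51A), not called.

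The Jun call depended on which libraries were kept. DESeq2 gave an adjusted p of 0.0575, and the call was also lost when S51 vehicle replicate 2 (0.69) or 3 (0.68), S51A vehicle replicate 1 (0.66) or 2 (0.60), or S51A bortezomib replicate 1 (0.61) or 3 (0.56) was left out. The Fos value was under the fold without S51 bortezomib replicate 2 (0.58). Fosl2 (-0.32, SE 0.08) and Myc (0.33, SE 0.10) passed the adjusted p and not the fold. By edgeR and by DESeq2 0 members were called lower, 1 had an unadjusted p below 0.05 in that direction, and 0.752% of genes were called lower.

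In RPF the difference between the responses was called for Junb alone (0.92, SE 0.19, adjusted p = 0.0118 by edgeR), with 0.878% of genes called higher. The value for Ier2 was 1.05 (SE 0.29, adjusted p = 0.0542 by edgeR), for Jun 0.71 (SE 0.42), for Ier3 0.70 (SE 0.22) and for Myc 0.42 (SE 0.20). Without S51 vehicle replicate 2, the library that was highest for the members, 5 members were called higher, as were 154 of 9597 genes against 83 of 9457 with it. Ier2 was then 1.39, Ier3 0.83, Fosl1 0.73 and Myc 0.64. By edgeR and by DESeq2 0 members were called lower, 0 had an unadjusted p below 0.05 in that direction, and 0.983% of genes were called lower. TE differences ran from -0.44 (Ier2, SE 0.35) to 0.48 (Ier3, SE 0.26), with 0 called by either tool, 0 at an unadjusted p below 0.05 and 1.29% of genes called.

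**Figure D5:**
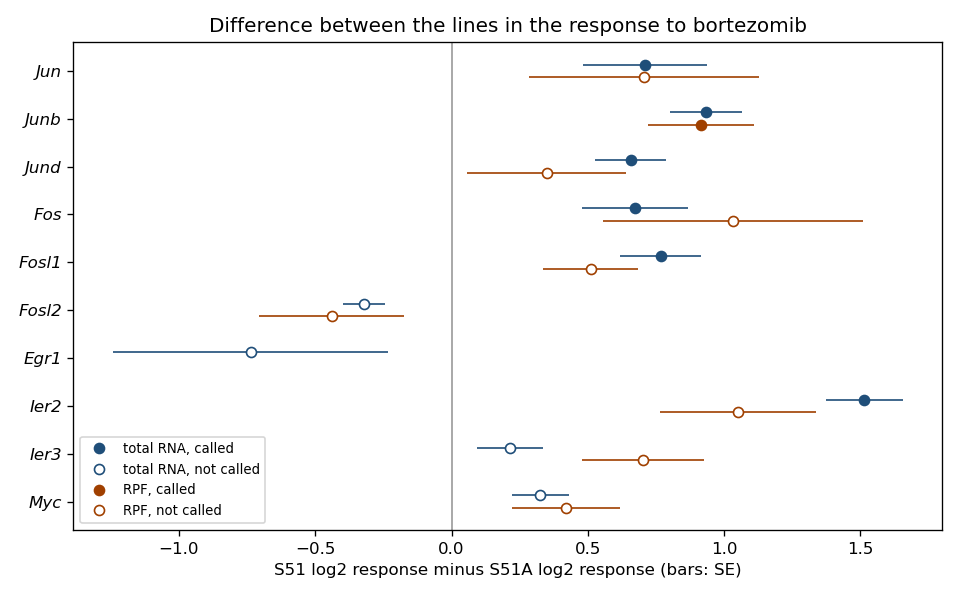
S51 log2 response to bortezomib minus the S51A log2 response (x axis) for each member in total RNA and RPF, with bars for SE and filled points for calls; Egr1 has no RPF test. The 6 filled total RNA points and the filled RPF point of Junb lie on the side of a higher log2 response in S51.

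Other genes of these pathways came from lists that hold no member. The lists are not separate, since Atf3, Maff, Srf and Dusp1 are shared between lists and counted in each. After each count of list genes stands, in parentheses, the share of all genes tested that was called in the same direction. Of 13 other AP-1 genes and dimer partners, 10 were tested in total RNA. In total RNA, 2 of 10 rose (5.7% of all genes) and 1 fell (9.59% of all genes) in S51, and 2 fell (8.57% of all genes) in S51A. Atf3, a stress-induced factor that can pair with Jun, rose in S51 by 1.36 (SE 0.19) and Mafg by 0.90 (SE 0.04). Maf fell by 1.64 (SE 0.10) in S51 and by 1.04 (SE 0.11) in S51A. The median of the list was 0.25 in S51 and -0.19 in S51A, where that of all genes was -0.01 in both. In RPF 2 of 8 fell (11.2% of all genes) in S51, and 1 rose (4.19% of all genes) and 1 fell (6.67% of all genes) in S51A.

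Of the other immediate early genes tested in total RNA, 4 of 24 rose (5.7% of all genes) and 7 fell (9.59% of all genes) in S51, and 2 rose (4.54% of all genes) and 7 fell (8.57% of all genes) in S51A. Btg2, an antiproliferative gene, rose by 2.99 (SE 0.11) in S51 and by 2.77 (SE 0.11) in S51A. Arc rose by 1.97 (SE 0.12) and by 2.19 (SE 0.10). Klf10 fell by 1.37 (SE 0.07) in S51, and it fell by 1.48 (SE 0.07) in S51A. Zfp36l2, which encodes an RNA-destabilising protein, fell by 1.36 (SE 0.10) and by 1.54 (SE 0.10). Ccn2 fell in S51 by 1.57 (SE 0.10) and Pim1 in S51A by 1.09 (SE 0.10). The median of the list was -0.17 in S51 and -0.33 in S51A. Tested in RPF, 4 of 22 rose (7.38% of all genes) and 7 fell (11.2% of all genes) in S51, and 2 rose (4.19% of all genes) and 7 fell (6.67% of all genes) in S51A. In RPF of S51, Dusp1 rose by 1.41 (SE 0.29) and Zfp36l1 by 0.98 (SE 0.18), while Srf fell by 1.30 (SE 0.23), Klf4 by 1.20 (SE 0.15) and Gadd45b by 0.93 (SE 0.17). In RPF of S51A, Klf4 fell by 1.12 (SE 0.13) and Sgk1 by 0.94 (SE 0.15).

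Among the upstream kinases, phosphatases and transcription factors tested in total RNA, 1 of 24 rose (5.7% of all genes) and 4 fell (9.59% of all genes) in S51, and 1 rose (4.54% of all genes) and 2 fell (8.57% of all genes) in S51A. Dusp6, an ERK phosphatase, fell by 1.95 (SE 0.10) in S51 and by 2.18 (SE 0.10) in S51A. Dusp5, which also acts on ERK, fell by 1.95 (SE 0.07) and by 1.52 (SE 0.07). Dusp10 fell in S51 by 0.86 (SE 0.12), and Map3k8, an activator of ERK signalling, rose in S51A by 1.55 (SE 0.17). At the RPF level, 3 of 24 rose (7.38% of all genes) and 7 fell (11.2% of all genes) in S51, and 1 rose (4.19% of all genes) and 3 fell (6.67% of all genes) in S51A. Elk3 fell in RPF by 1.22 (SE 0.16) in S51 and by 0.80 (SE 0.13) in S51A, Elk4 in S51 by 1.11 (SE 0.25), and Mapk9, which encodes a Jun kinase, rose in S51A by 0.88 (SE 0.18). The median of the list in total RNA was 0.11 in S51 and 0.03 in S51A.

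Of the genes for the turnover of Jun, Fos and Myc proteins tested in total RNA, 2 of 14 fell (9.59% of all genes) in S51, and 2 fell (8.57% of all genes) in S51A. Det1 fell by 0.92 (SE 0.09) in S51 and by 0.84 (SE 0.10) in S51A. Fbxl14 fell in S51 by 0.93 (SE 0.05) and Usp36 in S51A by 0.72 (SE 0.05). In RPF 2 of 14 rose (7.38% of all genes) and 3 fell (11.2% of all genes) in S51, and 3 fell (6.67% of all genes) in S51A. Skp2 fell in RPF of S51 by 0.76 (SE 0.16). The medians in total RNA were -0.03 and 0.06.

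Of the genes of the Myc network tested in total RNA, 1 of 16 rose (5.7% of all genes) and 1 fell (9.59% of all genes) in S51, and 1 rose (4.54% of all genes) and 2 fell (8.57% of all genes) in S51A. Mnt, a repressor that competes with Myc for Max, fell by 0.73 (SE 0.16) in S51 and by 0.73 (SE 0.15) in S51A. Mxd4 rose in S51A by 0.74 (SE 0.13) and Mxd3 fell there by 0.82 (SE 0.24). In RPF 2 of 13 fell (6.67% of all genes) in S51A. The medians in total RNA were -0.06 in S51 and -0.05 in S51A. Of the known Myc targets tested in total RNA, 1 of 18 rose (5.7% of all genes) and 1 fell (9.59% of all genes) in S51, and 1 fell (8.57% of all genes) in S51A. The medians were -0.22 and -0.25. Rrs1 fell by 0.61 (SE 0.05) in S51 and by 0.64 (SE 0.05) in S51A, and Cad rose in S51 by 0.63 (SE 0.04), a call lost with library sizes alone. For RPF, 4 of 18 fell (11.2% of all genes) in S51, and 3 fell (6.67% of all genes) in S51A. Odc1, the rate-limiting enzyme of polyamine synthesis, fell in RPF by 1.85 (SE 0.13) in S51 and by 0.80 (SE 0.11) in S51A, and Nop56 fell in S51A by 0.79 (SE 0.09).

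Of the known AP-1 targets tested in total RNA, 1 of 12 rose (5.7% of all genes) and 3 fell (9.59% of all genes) in S51, and 2 fell (8.57% of all genes) in S51A. Hbegf, an EGF receptor ligand, fell by 1.13 (SE 0.10) in S51 and by 1.77 (SE 0.10) in S51A. Plau, which encodes urokinase, fell by 0.84 (SE 0.08) and by 1.51 (SE 0.08). At the RPF level, 2 of 9 rose (7.38% of all genes) and 3 fell (11.2% of all genes) in S51, and 2 fell (6.67% of all genes) in S51A. In RPF of S51, Areg rose by 1.29 (SE 0.24), Vegfa by 1.15 (SE 0.17) and Ccnd1 fell by 1.05 (SE 0.14). The medians in total RNA were 0.13 in S51 and -0.31 in S51A.

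The gene whose total RNA profile lay nearest to that of each member was found over the 16 libraries as the smallest root mean square difference of centred log2 CPM. For Jun it was Mdm2, which encodes the ubiquitin ligase of p53, at 0.258. For the other AP-1 genes it was Cdc42ep1 for Junb (0.178), 4930523C07Rik for Jund (0.143), Olfr613 for Fos (0.174), Zfp36 for Fosl1 (0.121) and Edem2 for Fosl2 (0.0821). It was Nemp2 for Egr1 (0.279), Rad51ap2 for Ier2 (0.375), Itgav for Ier3 (0.115) and Dusp6 for Myc (0.232). The value depends on how far a member itself varied, with an SD of log2 CPM of 1.03 for Jun, 1.04 for Ier2 and 1.15 for Myc against 0.27 for Fos.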

How the data were processed

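RPF and total RNA libraries were deposited by the authors as whole-number counts per Entrez gene, without normalization. Per the labels and the study's methods, FastX trimming came before alignment to mm10 with Bowtie2, and alignments were counted with plastid or featureCounts, RPFs within the coding sequence without its first 15 and last 5 codons. Versions were not given in the sources used here. Per the file headers, duplicates were marked and repeats masked. The headers also carry the tag q50uniq, read here as unique alignments of quality 50, a reading that was not checked. The authors pooled no replicates but merged repeated runs of a total RNA library. The study names its replicates technical in one place and biological in another, so p-values measure the spread between libraries. Replicates differed beyond sampling noise, with a chi-square of 1.66 or more per gene where sampling gives 1.

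Counts were fitted in R 4.3.3 with edgeR 4.0.16 (TMM, filterByExpr with 10 counts and a total of 15, glmQLFit over 4 groups, glmQLFTest), and TE as the interaction of kind and group in 1 model. This left 9457 genes in RPF, 11708 in total RNA and 9424 for TE. Benjamini-Hochberg adjustment ran over all genes tested. CPM use TMM-scaled library sizes, per kilobase of counted coding sequence or of exon, the latter assumed for total RNA. Scripts were tested on simulated data. Members and lists were chosen with earlier results of these data known. Named were all members, up to 3 called genes of each list (2 of target lists) with the largest change per direction and response, in total RNA and then in RPF, and the nearest gene of each member. After the values were seen, list genes whose call was lost on leaving out 1 library were only counted. The alternatives were DESeq2 1.42.0, RLE, library sizes alone, no filter beyond 1 count, 10 counts in every library, a fold above 2, the replicate number (for TE, the shared lysate) as a block, only the groups compared, and each library left out.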

Additional observations from a re-analysis of the deposited data

Results flagged for a closer look

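Among 70 groups of 4 libraries screened, 4 held a library far from the other 3 by Dixon's test, where chance gives about 1 in 20. They were Fosl2 in total RNA of S51A bortezomib replicate 3 (47.2 CPM), Ier3 in RPF of S51A vehicle replicate 4 (55.8 CPM), Myc in RPF of S51A bortezomib replicate 4 (44.9 CPM) and Myc in total RNA of S51A vehicle replicate 4 (69.0 CPM). The responses of the lines differed by the test of the difference itself for Junb in RPF (log2 difference 0.92) and, in total RNA, for Jun (0.71), Junb (0.93), Jund (0.66), Fos (0.67), Fosl1 (0.77) and Ier2 (1.51). As given above, the Jun and Fos calls in total RNA were lost without certain single libraries, and that of Jun also by DESeq2.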

How the results depend on the processing

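Followed were 45 RPF, 50 total RNA and 6 TE values of members. Under the alternatives, 1695 of their values kept their direction and their side of the thresholds, 28 gained a call, 43 lost one and 14 changed sign. With a fold above 2, the members called were 0 in RPF and 1 in total RNA between the vehicle groups, 2 in RPF and 1 in total RNA between the bortezomib groups, 0 in RPF and 1 in total RNA for the difference between responses, and in S51 3 for the total RNA response (Jun, Myc and Egr1, the last having passed the filter only through vehicle libraries) and 0 for TE, since fewer changes reach that fold. The RPF difference between responses gave 2 members under DESeq2, with library sizes alone and without the filter (Ier2 joined Junb), and 3 with the replicate block. TE between bortezomib groups gave 1 member with library sizes alone. Leaving out 1 library gave 1 to 5 members for the RPF difference between responses, 0 to 1 for TE in S51, 0 to 4 for TE between vehicle groups, the 4 without RPF S51 vehicle replicate 3, and 0 to 1 for TE between bortezomib groups, the 1 without RPF S51A bortezomib replicate 1. Causes were not tested.

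None of the values that changed sign was called. Without single libraries, the RPF vehicle difference ran from -0.20 to 0.21 for Fosl1, -0.25 to 0.22 for Fosl2 and -0.076 to 0.30 for Junb, and Fosl1 was at 0.00029 with the replicate block. The RPF response in S51 ran from -0.31 to 0.090 for Fosl1 and -0.040 to 0.60 for Jund, that of Jund in S51A from -0.20 to 0.047, and the RPF difference of Ier3 between bortezomib groups from -0.20 to 0.0083. Fosl1 in total RNA of S51 ran from -0.0037 to 0.16, and was -0.084 with library sizes alone. The TE change of Jund in S51 ran from -0.61 to 0.019. Library sizes alone moved the median total RNA change of all genes to -0.16 in S51 and -0.13 in S51A.

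The replicate block raised the RPF response difference from 1 to 3 members called and changed no other count of members called. The main fits did not pair libraries by number. Across groups, same-numbered libraries correlated above 0.1 in 3 of 21 pairs in RPF and 8 of 24 in total RNA. Differently numbered libraries did so in 7 of 63 and 0 of 72 pairs. Between RPF and total RNA of a group, 8 of 15 same-numbered and 2 of 45 differently numbered pairs did so. Same-numbered libraries were thus more often alike in total RNA, and little more often in RPF. As a further hint of pairing, 11 of 15 RPF and 15 of 16 total RNA libraries had their highest mean correlation with their own number. Fos and Egr1 rest on at most 31 and 20 RPF reads per library.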
